A study of Sus scrofa with 599 samples.

Results

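Mesenteric adipose tissue (MAD) of pigs held 25450 enhancer regions on the 18 autosomes after weight loss (WL), and 2564 of them (10.1%) were also present in all 3 subgroups of weight-gain (WG) pigs while absent from the normal-condition (NC) table. These 2564 regions are described here, with the genes nearest to them. They were chosen by their presence and absence in the H3K27ac tables of MAD: a WL region had to overlap, by at least 1 base, a region in each of the WG tables and none in the NC table. Their presence and H3K27ac signal in MAD are therefore a description and no finding, and no test was made on them. The NC table of MAD came from 1 library, so that absence from it may be absence from that library only. It also held fewer regions (20646, covering 415.9 Mb) than the WL table (528.9 Mb). In the NC tables of all 4 tissues, 50.9 to 55.9% of regions were of a single peak, against 64.7 to 68.1% in the WG and WL tables. The part of this difference in the selection was not tested.

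The tissues came from adult females, 2 years old, of the Bama breed of miniature pig. A normal diet was fed to NC pigs and, for 22 weeks, a diet high in fat to WG pigs. The WL group was a set of these pigs that later received 10% of the normal calories over 12 weeks, so that WL pigs share the earlier high-fat diet with WG pigs. H3K27ac was profiled in 1 NC library, 2 libraries of WG subgroup 2, 2 of WG subgroup 4, 10 of WG subgroup 5 and 3 WL libraries of MAD, and each table was pooled over its libraries. The WG subgroups were formed by the authors from estimated cell composition. RNA-seq was available for 12 NC, 36 WG and 10 WL libraries of MAD, and Hi-C for 12, 37 and 10.

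H3K27ac is an acetyl mark on histone H3 that is found at active enhancers and promoters. Enhancers are stretches of DNA bound by transcription factors that raise transcription of a gene nearby or at some distance, and dense clusters of them with high signal are called super-enhancers. Mesenteric fat surrounds the vessels and lymph nodes of the gut, drains into the portal vein, and holds adipocytes, their progenitors, endothelial cells, macrophages and lymphocytes. The tables were made from bulk tissue, in which fewer cells of a type and less mark or RNA per cell cannot be told apart.

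The 5 regions with the most H3K27ac signal above input in WL lay at SLCO2A1, LZTS1, MAGI1, PLCB4 and CHRNA4. For each but LZTS1, the 300 bases with the most matches to 7 motifs are printed as examples of sequence inside the regions, and those of the regions nearest to the start sites of FASN and LEP, added after the expression of these genes was seen, are printed because both genes recur in the results. Sequences are the plus strand of Sscrofa11.1, 5′ to 3′, with matches to a motif on either strand in capitals. Overlapping matches run together. The letters searched were TGANTCA (AP-1), TTGCNNAA (C/EBP), GAGGAA (PU.1), CCCNNGGG (EBF) and GGAATG (TEAD), and the PPARG:RXR direct repeat DR1 and the palindrome of the glucocorticoid receptor were searched by their consensus. A match is a run of letters and not a site known to be bound. The tables give the joined region and not its peaks, so that a printed stretch may lie between peaks.
SLCO2A1 region, chr13:75121166-75121465: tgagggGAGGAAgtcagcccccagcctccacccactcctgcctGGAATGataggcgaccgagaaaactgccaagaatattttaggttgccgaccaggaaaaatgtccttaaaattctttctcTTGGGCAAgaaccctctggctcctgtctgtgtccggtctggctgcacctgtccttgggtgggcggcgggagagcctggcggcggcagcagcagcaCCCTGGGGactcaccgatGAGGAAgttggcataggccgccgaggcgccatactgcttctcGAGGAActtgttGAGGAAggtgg
MAGI1 region, chr13:47154471-47154770: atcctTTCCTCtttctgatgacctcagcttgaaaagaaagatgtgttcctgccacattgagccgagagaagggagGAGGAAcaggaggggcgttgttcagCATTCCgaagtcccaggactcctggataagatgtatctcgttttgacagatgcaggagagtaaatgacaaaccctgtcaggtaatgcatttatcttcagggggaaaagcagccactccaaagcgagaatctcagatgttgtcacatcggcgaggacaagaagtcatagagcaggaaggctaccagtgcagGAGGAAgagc
PLCB4 region, chr17:17799104-17799403: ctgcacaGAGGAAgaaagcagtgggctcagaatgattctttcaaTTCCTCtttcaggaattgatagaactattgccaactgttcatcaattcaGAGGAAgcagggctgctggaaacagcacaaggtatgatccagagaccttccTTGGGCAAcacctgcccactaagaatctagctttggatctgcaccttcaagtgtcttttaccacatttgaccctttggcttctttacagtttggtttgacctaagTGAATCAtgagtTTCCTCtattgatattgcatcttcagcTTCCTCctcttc
CHRNA4 region, chr17:62448449-62448748: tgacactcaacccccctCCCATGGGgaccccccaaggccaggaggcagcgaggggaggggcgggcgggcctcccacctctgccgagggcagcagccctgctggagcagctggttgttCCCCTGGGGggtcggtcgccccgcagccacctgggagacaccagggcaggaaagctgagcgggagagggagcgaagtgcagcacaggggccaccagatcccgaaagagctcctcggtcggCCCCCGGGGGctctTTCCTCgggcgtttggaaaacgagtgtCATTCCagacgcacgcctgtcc
FASN region, chr12:932652-932951: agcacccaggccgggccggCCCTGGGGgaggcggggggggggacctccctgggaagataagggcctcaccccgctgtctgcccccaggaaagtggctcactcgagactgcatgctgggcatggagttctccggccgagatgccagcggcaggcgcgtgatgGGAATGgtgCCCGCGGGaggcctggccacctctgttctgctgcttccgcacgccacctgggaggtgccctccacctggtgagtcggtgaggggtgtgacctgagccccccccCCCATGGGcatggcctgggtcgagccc
LEP region, chr18:20192243-20192542: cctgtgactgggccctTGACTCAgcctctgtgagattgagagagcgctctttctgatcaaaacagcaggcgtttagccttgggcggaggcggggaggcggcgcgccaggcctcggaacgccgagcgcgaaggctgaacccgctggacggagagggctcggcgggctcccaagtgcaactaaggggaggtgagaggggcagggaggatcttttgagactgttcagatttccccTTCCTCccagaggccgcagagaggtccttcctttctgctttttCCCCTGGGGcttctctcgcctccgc

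The printed stretch at SLCO2A1 held 4 matches to PU.1 and 69 bases of a coding exon, that at PLCB4 held 5 matches to PU.1, and that at CHRNA4 held 6 to EBF, counting overlapping matches. The stretch in FASN held 3 matches to EBF and 151 coding bases, and that near LEP held 1 to AP-1. Such matches were common in any stretch of this length. Among all 1754386 stretches of 300 bases in WL regions, 25.1% held a PU.1 match, 10.4% an EBF match, 14.9% a TEAD match, 13.1% a C/EBP match and 9.78% an AP-1 match. DR1 was found in 0.0253% of them and the glucocorticoid receptor palindrome in 0.00564%.

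Over their whole length the regions were richer in G and C than those shared by NC, WG and WL (50.1% against 46.6%) as the share of bases. EBF matches numbered 0.705 per kb against 0.456, PU.1 matches 1.06 against 1.01, C/EBP matches 0.422 against 0.489 and AP-1 matches 0.325 against 0.351. Among regions of 50 to 55% GC the EBF rates were 0.705 and 0.733 per kb and the PU.1 rates 1.15 and 1.07. At 45 to 50% GC the EBF rates were 0.411 and 0.406, so that the EBF difference was not seen in these ranges. Regions under 35% GC or of 55% and more were not compared in this way. The median GC of the chosen regions was 52.3%, so that the EBF rates of the richest regions at matched GC are not known.

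The 12543 WL regions in NC and all WG tables (49.3% of WL regions) served as the closest comparison. Another 3581 WL regions were absent from NC and present in 1 or 2 WG tables, and 1829 were in WL only. Seen from the WG side, 2795 regions of WG subgroup 5 were in the other 2 WG tables and absent from NC. Of these, 2645 (94.6%) overlapped a WL region and 150 (5.37%) did not. In the opposite direction, 3608 of 20646 NC regions (17.5%) were in no WG table and not in WL.

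The boundary of the selection ran close to some regions. Of the 2564 regions, 13 lay within 200 bases of an NC region, 67 within 1000 bases and 1059 within the distance over which the authors joined peaks into regions, and the median gap to the nearest NC region was 16.4 kb. Just outside, 10 regions were left out for an overlap of 200 bases or less with an NC region, and 108 for 1000 bases or less.

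The regions were small, which the selection itself favours, since a long WL region is more likely to touch an NC region. Their median length was 4.8 kb, from 0.2 to 128.6 kb, against 20.6 kb for the shared regions, and 75% consisted of a single peak against 51.9%. Over all WL regions the median length was 8.6 kb and 67.3% were of a single peak. The chosen regions covered 20.8 Mb, while the shared regions covered 446.7 Mb. These contrasts, and that in super-enhancers, are in part set by the selection and are a description. No region carried the authors' super-enhancer mark in WL, where the best rank was 1520, whereas 1411 shared regions (11.2%) carried it. In WG, 85, 73 and 114 of the regions overlapped a super-enhancer of subgroups 2, 4 and 5.

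Signal was read from the authors' tables, as read density scaled to the number of mapped reads and multiplied by the region length, and divided here by the length in kb. In WG it is the signal of the WG regions that overlap a WL region, divided by their own length. Those WG regions may extend beyond the WL region. The median H3K27ac signal per kb was 248.8 in WL and 226.9, 235.3 and 251.4 in WG subgroups 2, 4 and 5, against 318.5, 260.3, 247.3 and 290.0 at the shared regions. Signal over input had medians of 1.77 in WL and 1.59, 1.53 and 1.68 in WG, against 2.26, 1.82, 1.65 and 1.98. Only 102 of the 2564 regions reached 2 times input in WL and overlapped, in each of the 3 WG tables, a region that did.

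**Figure D1:**
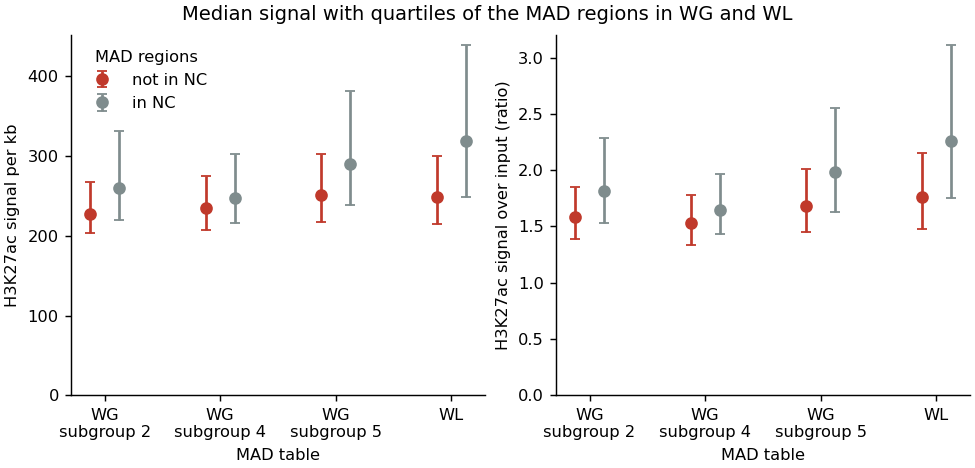
H3K27ac signal per kb (left axis title) and H3K27ac signal over input as a ratio (right axis title) of MAD regions absent from NC (red, n = 2564) and present in NC (grey, n = 12543) in each WG subgroup table and in WL. Points are medians over regions and bars run from the lower to the upper quartile; in WL the medians of the ratio are 1.77 and 2.26, and the quartile bars of the 2 classes overlap in every table. WG values are those of the overlapping WG regions over their own length.

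Most of the regions overlapped an NC region in at least 1 of the other 3 adipose tissues, whose tables the selection did not use. The greater omentum (GOM), retroperitoneal adipose (RAD) and the upper layer of backfat (ULB) each had an NC table, pooled from 3, 2 and 3 libraries. In these, 52.5%, 69.9% and 54.0% of the regions overlapped an NC region, against 91.5%, 92.6% and 90.3% of the shared regions. Of the 2564 regions, 2309 (90.1%) were in at least 1 of these NC tables, 675 in all 3 and 255 in none. Among regions of 2 to 10 kb, where the classes are closer in length, 90.6% of those absent from NC MAD and 98.5% of the shared were in at least 1 other NC table, and 25.0% and 61.4% were in all 3.

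The same regions were frequent in WG and WL tables of the other tissues. They were found in 82.0% of cases in WL GOM, 84.4% in WL RAD and 91.5% in WL ULB. In WG the share ran from 58.1% in subgroup 5 of ULB to 86.0% in subgroup 5 of GOM. All 10 of these tables held 596 of the regions (23.2%), of which 14 were in no NC table of any tissue. No test was possible, since each table is 1 pool of libraries.

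**Figure D2:**
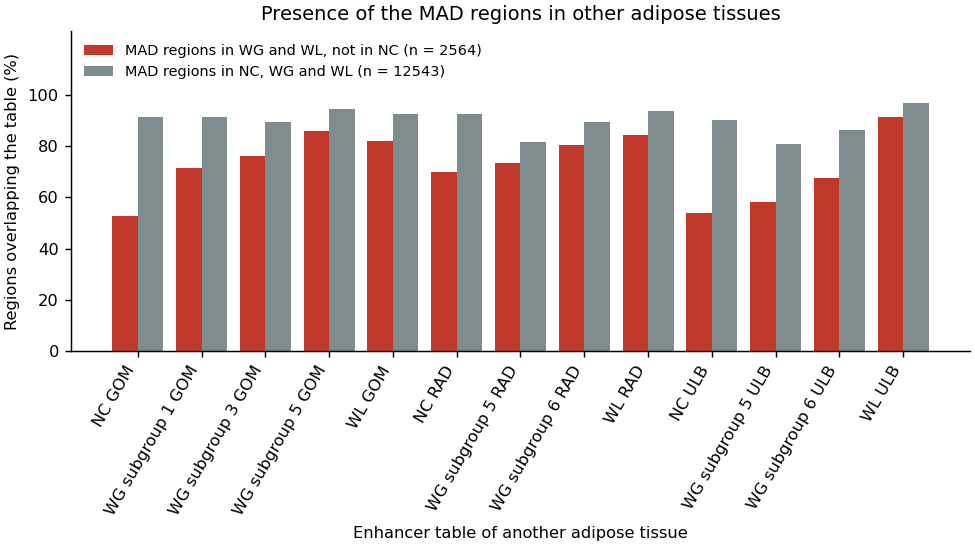
Share of MAD regions (vertical axis, percent) that overlap a region in each enhancer table of GOM, RAD and ULB (horizontal axis), for regions absent from NC MAD (red, n = 2564) and regions present in it (grey, n = 12543). The red bars are lower than the grey in all 13 tables, and in each tissue the red bar of NC is lower than that of WL.

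The same selection in the other tissues gave 1533 regions in GOM (6.73% of WL regions), 1306 in RAD (5.98%) and 1302 in ULB (5.14%). These shares are lower than the 10.1% of MAD, but GOM has 3 WG tables like MAD while RAD and ULB have 2, and their NC tables hold 3, 2 and 3 libraries against 1. Of the MAD regions, 419 (16.3%) overlapped the GOM list, 329 (12.8%) the RAD list and 317 (12.4%) the ULB list. Counted from the other side, 427 regions of the GOM list (27.9%), 330 of the RAD list (25.3%) and 311 of the ULB list (23.9%) overlapped a MAD region. Across chromosomes the share of WL regions that were absent from NC and present in all WG tables ran from 7.17% on chromosome 1 to 13.9% on chromosome 12 and 13.8% on chromosome 6.

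Most of the regions lay away from start sites. The authors ran the joining of peaks with an exclusion zone of 2000 bases around start sites, which bears on these distances in both classes of region. A start site of a protein-coding gene of RefSeq fell inside 195 regions (7.61%), against 38.1% of the shared regions, and the median distance to the nearest start site was 23.8 kb against 11 kb. Over all WL regions these values were 23.2% and 22.9 kb, so that the median distance was near that of WL regions in general. At lengths of 2 to 10 kb the shares with a start site inside were 5.33% of the chosen and 11.11% of the shared regions. The middle of the region was in an exon in 8.89%, in an intron in 45.5% and between genes in 45.6%. The regions had 2065 nearest genes, of which 1558 could be matched to expression. Most genes (1704) had 1 region, while DAPL1 had 7, C5H12orf75 and NUAK1 had 6, and ATP2A3, HES1, LOC110259222 and UTRN had 5.

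Expression of the nearest genes was not used by the overlap rule and was compared between groups with edgeR's quasi-likelihood test over all protein-coding genes that passed a filter on TPM (transcript abundance per gene length, scaled to the same total in each library). A gene was called when its Benjamini-Hochberg adjusted p was below 0.05 and it changed over 1.5-fold. The 3 comparisons share samples, and their values are given side by side. The share of RNA on protein-coding genes was lower in WL: it was under 90% of TPM in 7 of 10 WL libraries, in 2 of 12 NC and in 2 of 36 WG. One NC library (replicate 1) had smooth muscle markers summing to 12921 TPM against a median of 889 in NC, and replicates 5 and 6 had 3484 and 2394. WL replicates 1, 6 and 7 and WG replicate 31 had T-cell markers of 221 to 585 TPM against at most 30.6 in NC. Adipocyte markers had medians of 7733, 5962 and 4716 TPM in NC, WG and WL, and macrophage markers 326, 747 and 739. All adipocyte markers were detected. The part of these differences in the results below was not tested, other than by leaving libraries out and by a fit with the share of TPM on protein-coding genes as a covariate.

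Nearest genes changed about as often as genes in general. From NC to WG, 1180 nearest genes were tested, 74 (6.27%) were higher in WG and 51 (4.32%) lower, beside 5.38% and 5.29% of all genes tested. From WG to WL, 124 of 1216 (10.2%) were higher and 117 (9.62%) lower, beside 8.26% and 9.17%. From NC to WL, 219 (18.01%) were higher and 196 (16.1%) lower, beside 15.2% and 17.8%. The median log2 fold change of the nearest genes was 0.01, 0.01 and 0.02. Genes nearest to the shared regions had shares of 6.71% and 3.58%, 8.66% and 10.4%, and 17.4% and 15.9%. These shares are near the background and are no result about the nearest genes.

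**Figure D3:**
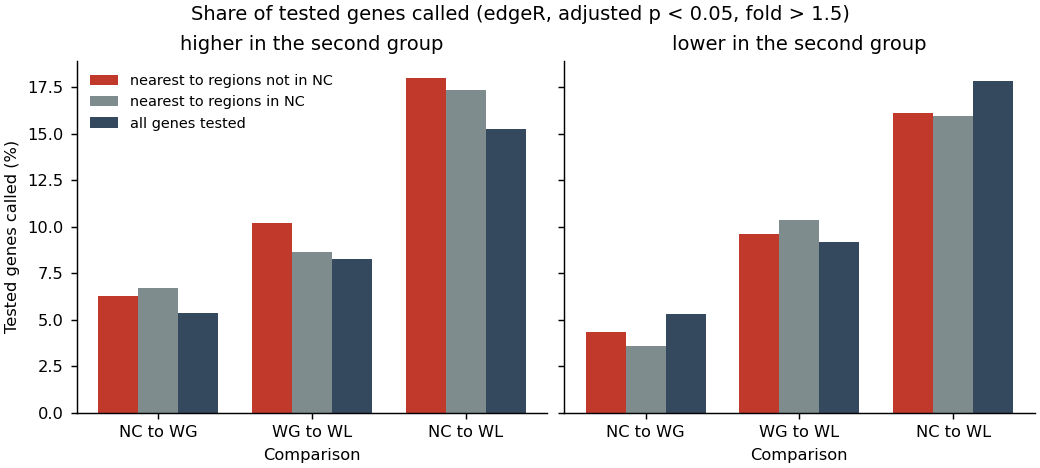
Share of tested genes called higher (left) or lower (right) in the second group of each comparison (vertical axis, percent; edgeR, adjusted p below 0.05, over 1.5-fold), for genes nearest to MAD regions absent from NC (red), genes nearest to regions present in NC (grey) and all genes tested (dark blue). The 3 bars of each comparison differ by less than 3 percentage points.

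Without the 4 libraries high in lymphocyte markers, the calls from WG to WL fell from 241 to 89 (45 higher and 44 lower), and from NC to WL from 415 to 286 (139 and 147). From WG to WL these were 3.70% higher and 3.62% lower, beside 2.61% and 3.31% of all genes. From NC to WL they were 11.4% and 12.1%, beside 9.70% and 13.6%. Without NC replicate 1, the calls lower from NC to WG fell from 51 to 33 (2.80%, beside 4.28% of all genes). Without all libraries under 90% of TPM on protein-coding genes, 7 calls were left from WG to WL and 80 from NC to WL. The shares higher and lower were 0.493% and 0.0822% from WG to WL, beside 0.201% and 0.0862% of all genes. From NC to WL they were 4.28% and 2.30%, beside 3.21% and 2.23%. Of the genes named below, FASN alone of 15 kept its call from WG to WL without these libraries, 10 of 29 kept theirs from NC to WL (FASN, GYS2, ELOVL6, LEP, PADI2, AMBN, FRMD1, TREM2, ALPL and MCOLN3) and 16 of 18 theirs from NC to WG.

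Genes with a start site inside a region, or with several regions, were few. Of 67 tested genes with a start site inside, 5 (7.46%) were higher from NC to WG and 6 lower, beside 5.38% and 5.29% of all genes. From WG to WL, 16 of 73 (21.9%) were higher and 5 (6.85%) lower, beside 8.26% and 9.17%, and from NC to WL 19 of 72 (26.4%) were higher and 12 (16.7%) lower, beside 15.2% and 17.8%. Without the 4 lymphocyte-rich libraries, 10 were higher from WG to WL (13.7%, beside 2.61% of all genes) and 11 from NC to WL (15.3%, beside 9.70%). Without libraries under 90% of TPM on protein-coding genes, these were 3 (4.11%, beside 0.201%) and 4 (5.56%, beside 3.21%). Of 58 tested genes with 3 or more regions, 2 (3.45%) were higher from NC to WG and 1 (1.72%) lower. Of 59 tested, 9 (15.3%) were higher and 2 (3.39%) lower from WG to WL, and 16 (27.1%) and 6 (10.2%) from NC to WL. Without the 4 lymphocyte-rich libraries, 10 (16.9%) and 4 (6.78%) remained from NC to WL, beside 9.70% and 13.6% of all genes. Without libraries under 90%, 3 (5.08%) were higher from NC to WL and 0 from WG to WL.

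FASN, GYS2 and ELOVL6 were the nearest genes of energy storage that fell most. FASN, which makes palmitate from acetyl-CoA and malonyl-CoA, is at chr12:922405-937560 on the plus strand, and the region (chr12:927001-933200) lay inside the gene with its middle in an exon, 4.6 kb from its start site. FASN had 232, 1623 and 2887 TPM as the lowest, median and highest of NC, 47.3, 1248 and 9973 in WG, and 9.82, 27.8 and 76.1 in WL. The NC and WL libraries did not overlap, and 35 of 36 WG libraries lay above the highest WL library. The log2 fold change was -5.57 ± 0.64 (SE) from WG to WL (adjusted p = 5.55e-08) and -5.78 ± 0.50 from NC to WL (adjusted p = 3.23e-07), and both calls passed in every fit that left libraries out, with values from -5.13 to -5.89. From NC to WG it was -0.24 ± 0.41 (adjusted p = 0.720). Of the 46 genes named here by rule, 25 were also nearest to at least 1 region shared with NC, among them FASN, GYS2, ELOVL6, LEP, IL10, IRF8, FOXC1 and SFRP2. The FASN region had 200.5 of H3K27ac signal per kb in WL. The WG regions that overlap it, whose lengths may differ, had 296.9, 241.0 and 501.7 in subgroups 2, 4 and 5.

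GYS2, the liver isoform of glycogen synthase, had a region between genes (chr5:51774801-51800200) 62.8 kb from its start site. It had 12.2, 83.6 and 153 TPM in NC, 6.07, 48.7 and 118 in WG, and 1.56, 4.62 and 17.1 in WL. It fell from WG to WL (log2 fold change -3.42 ± 0.41, adjusted p = 1.47e-07) and from NC to WL (-4.33 ± 0.42, adjusted p = 6.38e-07), and less from NC to WG (-0.91 ± 0.27, adjusted p = 0.0142). The WL values lay low, and the highest of them overlapped the lowest NC value.

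ELOVL6, which lengthens saturated fatty acids, had a region of 1.0 kb inside the gene (chr8:112091801-112092800), 53.1 kb from its start site. It had 164, 599.7 and 828 TPM in NC, 302, 567 and 1692 in WG, and 66.0, 156 and 342 in WL. It fell by 1.96 on the log2 scale from WG to WL (adjusted p = 9.31e-07) and from NC to WL (adjusted p = 2.54e-05). Without the libraries under 90% the fall from WG to WL was 1.62 (adjusted p = 0.106).

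Of the adipocyte and lipid genes, 48 in the list and 41 tested, 2 were higher and 4 lower from NC to WG, 1 and 15 from WG to WL, and 2 and 23 from NC to WL, beside 5.29%, 9.17% and 17.8% of all genes lower. The medians were -0.22, -0.52 and -0.79 beside -0.01, -0.02 and -0.01 over all genes tested. Without the 4 lymphocyte-rich libraries, 9 were lower from WG to WL and 17 from NC to WL, beside 3.31% and 13.6% of all genes. Without libraries under 90% of TPM on protein-coding genes, 1 and 6 were lower, beside 0.0862% and 2.23% of all genes. The medians of the list there were -0.41 and -0.67. The 8 list genes nearest to a region were FASN, ELOVL6, LEP, SREBF1, PCK1, CEBPD, PPARGC1A and TBX15, of which 7 were tested. SREBF1, a transcription factor of lipid synthesis, fell from NC to WL (log2 fold change -1.13 ± 0.28, adjusted p = 0.00288). PCK1, an enzyme of glyceroneogenesis, had -1.42 ± 0.56 (adjusted p = 0.0398), which no longer passed without the 4 lymphocyte-rich libraries (adjusted p = 0.173). CEBPD and PPARGC1A passed in no comparison.

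LEP, which encodes leptin, the adipocyte hormone that signals fat stores to the brain, went the other way. It had 2 regions between genes, the nearer (chr18:20190401-20193800) 66.3 kb from its start site. LEP had 16.5, 78.3 and 138 TPM in NC, 77.9, 322 and 805 in WG, and 89.97, 316 and 564 in WL. Of the WG libraries 34 of 36, and of the WL libraries 7 of 10, lay above the highest NC library. LEP rose from NC to WG (log2 fold change 1.93 ± 0.27, adjusted p = 1.85e-06) and was still higher in WL than in NC (1.69 ± 0.33, adjusted p = 4.32e-04), with -0.25 ± 0.25 (adjusted p = 0.462) from WG to WL. Both calls passed in every fit that left libraries out. The nearer LEP region had 378.7 of H3K27ac signal per kb in WL. The WG regions that overlap it, whose lengths may differ, had 215.2, 217.0 and 365.1.

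TREM2, IL10 and IRF8 were higher than in NC in both WG and WL. TREM2, a lipid receptor of macrophages, had a region upstream of it (chr7:36477801-36483800), 6.29 kb from its start site. It had 1.14, 2.45 and 7.90 TPM in NC, 1.86, 9.65 and 40.04 in WG, and 2.77, 9.10 and 22.9 in WL, and 19 of 36 WG and 6 of 10 WL libraries lay above the highest NC library. TREM2 rose by 1.79 ± 0.39 on the log2 scale from NC to WG (adjusted p = 0.00105) and by 1.71 ± 0.40 from NC to WL (adjusted p = 0.00155), and both calls passed in every fit that left libraries out. Macrophage markers moved with it, as their medians above show.

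IL10, a cytokine that dampens inflammation, rose from NC to WG (log2 fold change 1.05 ± 0.32, adjusted p = 0.0168) and from NC to WL (1.62 ± 0.37, adjusted p = 0.00157). IRF8, a transcription factor of macrophages, dendritic cells and B cells, had 7.31, 13.9 and 22.8 TPM as medians of NC, WG and WL, and its log2 fold change from NC to WL fell from 2.18 to 0.98 without the 4 lymphocyte-rich libraries (adjusted p = 0.00251). NFKB1 and RELA, subunits of NF-κB, passed in no comparison at the fold limit. Of the inflammation list, 30 genes were tested, with 16 higher and 0 lower from NC to WG, 10 and 1 from WG to WL, and 25 and 0 from NC to WL, beside 5.38%, 8.26% and 15.2% of all genes higher. The list's median was 1.3 in the last, beside -0.01 over all genes. The list holds genes that the study reported as raised in fat of these same pigs, among them SHARPIN, CD180, TNFRSF1A and CLEC7A. Its shares beside those of all genes are therefore a description and no independent result. Of the T-cell markers, 1 of 4 tested was higher from NC to WG, and 4 of 4 from WG to WL and from NC to WL. B-cell markers had 0 of 3, 4 of 4 and 3 of 4 higher in the 3 comparisons. Of the 6 macrophage markers, 6 were higher from NC to WG and 4 from NC to WL. From WG to WL, 1 of them was higher and 1 lower. Without the 4 lymphocyte-rich libraries, 16, 1 and 19 genes of the list were higher, and the median from NC to WL was 0.75. Without libraries under 90% of TPM on protein-coding genes, 16, 1 and 7 were higher, beside 4.52%, 0.201% and 3.21% of all genes. The median of the list from NC to WL was then 0.92. On all libraries, the counts at an unadjusted p below 0.05 were 23 and 0, 13 and 2, and 27 and 1, and DESeq2 called 17 and 0, 11 and 1, and 25 and 0. Of the 5 nearest to a region and tested, 3, 1 and 3 were higher.

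PADI2, AMBN and FRMD1, among the largest rises from NC to WG, were also higher in WL than in NC. PADI2, a peptidyl arginine deiminase that turns arginine of proteins into citrulline, had a region of 29 kb (chr6:75767001-75796000), 11 kb from its start site. It had 0.859, 2.46 and 8.73 TPM in NC, 2.5, 15.6 and 68.3 in WG, and 5.31, 15.6 and 40.3 in WL. PADI2 rose by 2.33 ± 0.41 from NC to WG (adjusted p = 8.91e-05) and by 2.20 ± 0.38 from NC to WL (adjusted p = 1.42e-04). AMBN, which encodes the enamel matrix protein ameloblastin, had medians of 3.14, 15.4 and 17.5 TPM and rose by 2.31 ± 0.43 and 2.29 ± 0.41.

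FRMD1 had medians of 0.376, 1.25 and 2.70 TPM. Its WL libraries, from 1.00 to 6.73 TPM, all lay above the NC libraries, from 0.0729 to 0.767 TPM. It rose by 2.29 ± 0.51 from NC to WG (adjusted p = 0.00140) and by 2.80 ± 0.38 from NC to WL (adjusted p = 1.54e-05). MCOLN3, a calcium channel of endosomes and lysosomes, had medians of 0.0831, 0.326 and 1.16 TPM and was higher in WL than in NC (log2 fold change 3.56 ± 0.66, adjusted p = 2.56e-04). Its highest WL values were in the lymphocyte-rich replicates 6 and 7, and without the 4 lymphocyte-rich libraries the log2 fold change was 2.5 ± 0.64 (adjusted p = 0.00700). It had too low an expression to be tested from NC to WG. SFRP2, a secreted modulator of Wnt signalling, rose from NC to WG (2.16 ± 0.54, adjusted p = 0.00395) and had 0.90 ± 0.40 from NC to WL (adjusted p = 0.0654).

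FOXC1, a transcription factor with its start site inside a region of 32.8 kb (chr7:828001-860800), rose in each comparison. It had 0.513, 1.55 and 3.97 TPM in NC, 1.14, 2.89 and 6.28 in WG, and 1.96, 4.98 and 10.8 in WL, with overlap between neighbouring groups. The log2 fold change was 0.64 ± 0.20 from NC to WG (adjusted p = 0.0194), 0.69 ± 0.19 from WG to WL (adjusted p = 0.00503) and 1.34 ± 0.29 from NC to WL (adjusted p = 0.00102). Without the libraries under 90% the last was 1.07 (adjusted p = 0.144).

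SLCO2A1, a transporter of prostaglandins, had its start site inside the largest region (128.6 kb, chr13:75100401-75229000) and was lower in WL than in NC and WG. It had 3.69, 18.3 and 52.8 TPM in NC, 4.16, 17.6 and 78.0 in WG, and 3.96, 7.69 and 12.9 in WL. Its log2 fold change was 0.03 ± 0.36 from NC to WG (adjusted p = 0.959), -1.69 ± 0.40 from WG to WL (adjusted p = 0.00150) and -1.63 ± 0.36 from NC to WL (adjusted p = 0.00116). Without the libraries under 90% the falls were 1.76 and 1.72 and did not pass (adjusted p = 0.416 and 0.158).

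Other genes at the regions with most signal did less. MAGI1, a scaffold protein of cell junctions, had -0.85 ± 0.22 from NC to WL (adjusted p = 0.00335). KTN1, a kinesin-binding protein, had -0.50 ± 0.12 from WG to WL, under the fold limit. PLCB4, a phospholipase C, fell from NC to WG (-0.86 ± 0.18, adjusted p = 5.72e-04), but the highest NC library had 249 TPM against a median of 52.0, and without NC replicate 1 the fall was 0.46, under the fold limit. LZTS1, CHRNA4, TMCC3 and TCF15 passed in no comparison, and PODXL was not matched to expression.

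Several of the largest rises from NC to WL had their highest values in the lymphocyte-rich libraries. CD79B, DAPL1, LEF1 and S1PR4 had their 3 highest WL values in replicates 1, 6 and 7, and MCOLN3 its 2 highest in replicates 6 and 7. CD79B, a part of the B-cell receptor complex, DAPL1, and LEF1, a transcription factor of T cells and Wnt signalling, had log2 fold changes of 4.88, 3.70 and 3.16. The highest WL values were 179.9 TPM for CD79B, 124 for DAPL1 and 85.0 for LEF1, against WL medians of 2.16, 4.03 and 3.83. Without the 4 lymphocyte-rich libraries the log2 fold changes from NC to WL were 0.49, 0.34 and 0.61, and none passed. CD79B is itself among the B-cell markers used. S1PR4, a sphingosine phosphate receptor of leukocytes, kept its call from NC to WL at 1.21 (adjusted p = 0.0204) instead of 3.25. CCL17, a chemokine that draws T cells, rose from NC to WG (log2 fold change 2.05, adjusted p = 0.0126, and 1.68, adjusted p = 0.0156, without those libraries). From WG to WL it had 3.02 ± 0.54, and 0.32 without them.

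MYLK, ASB2, CACNB2 and MTUS2 were among the largest falls from NC to WG, and each had its 3 highest NC values in replicates 1, 5 and 6. Replicates 5 and 6 also had high smooth muscle markers, summing to 3484 and 2394 TPM. No fit left out all 3 of these libraries, so the falls without them were not tested. The summed smooth muscle markers had medians of 889 TPM in NC and 965 in WG, and 3 of the 5 were called lower. MYLK, the myosin light chain kinase of smooth muscle, had 39.7, 121 and 2923 TPM in NC and 35.2, 92.0 and 161 in WG, and the log2 fold change was -2.50 ± 0.33. Without NC replicate 1 it was -1.44 (adjusted p = 2.27e-04). ASB2, an adaptor of a ubiquitin ligase in muscle, CACNB2, a calcium channel subunit, and MTUS2 had -2.82, -2.29 and -2.40, and -1.99, -1.36 and -1.63 without that library. From NC to WL, MYLK, ASB2 and CACNB2 no longer passed without it.

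LAMC3, DLL3, PEBP4 and ALPL were also lower in WL than in NC. LAMC3, a laminin chain, had medians of 2.11, 1.63 and 0.660 TPM and a log2 fold change of -2.54 ± 0.55 from NC to WL. Its highest NC library had 21.5 TPM. DLL3, a Notch ligand, had -2.57 ± 0.49, and PEBP4 had -2.24 ± 0.52. ALPL, alkaline phosphatase, had -2.06 ± 0.52 from WG to WL and -1.86 ± 0.38 from NC to WL. TIMP3, an inhibitor of matrix proteases, fell from WG to WL (-0.59 ± 0.15, adjusted p = 0.00210), but was not called without the 4 lymphocyte-rich libraries (-0.39, adjusted p = 0.0963) or with the covariate (-0.54, under the fold limit), while TGFBR1 and SMAD3 passed in no comparison. Of the 29 matrix genes tested, 4 were higher and 1 lower from NC to WG, 1 and 11 (37.9%) from WG to WL, and 5 and 5 (17.2% each) from NC to WL, beside 8.26% and 9.17%, and 15.2% and 17.8%, of all genes. Without the 4 lymphocyte-rich libraries 6 were lower from WG to WL, and without libraries under 90% of TPM on protein-coding genes 0 were. No gene of the glucocorticoid and fasting list was nearest to a region, and of its 18 tested genes edgeR called 0 from NC to WG (4 higher and 2 lower at an unadjusted p below 0.05, and 1 called by DESeq2), 1 was higher and 6 (33.3%) lower from WG to WL, and 2 and 6 (33.3%) from NC to WL. Without the lymphocyte-rich libraries 1 was lower from WG to WL and 3 from NC to WL. Without libraries under 90% of TPM on protein-coding genes 0 were lower in either.

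**Figure D4:**
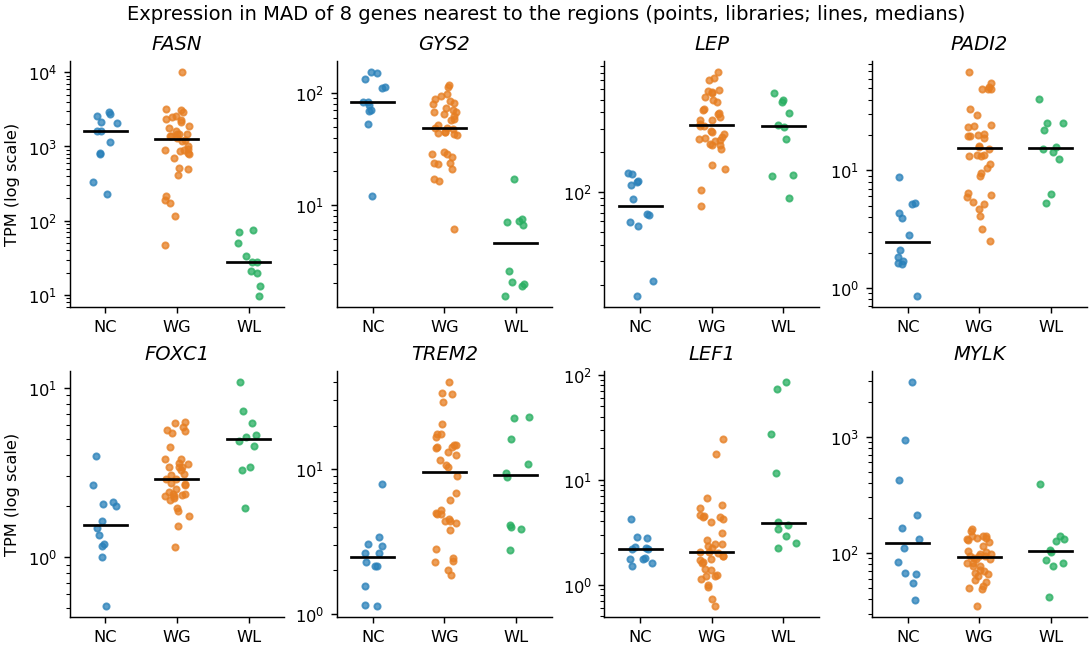
TPM in MAD (vertical axis, log scale) of 8 genes nearest to the regions in NC (n = 12), WG (n = 36) and WL (n = 10) libraries. Points are libraries and lines are medians; the WL points of FASN lie below all NC points, those of LEP, PADI2 and TREM2 lie with the WG points above most NC points, and LEF1 in WL and MYLK in NC hold a few libraries far above the others.

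The A-B index, a score of the compartment of each 20-kb bin from Hi-C that is positive in the active compartment A and negative in B, was a measure that the overlap rule did not use. Per the methods of the study, Hi-C used the upper layer of the centrifuged tissue, which holds the adipocytes. No such step is described for RNA, so that index and expression may come from different mixtures of cells. The bins that hold the middle of the regions numbered 2448. Their median index was 2.14 (NC), 2.51 (WG) and 2.64 (WL), and 80.02%, 82.1% and 83.4% of them had a positive mean index. Over all 113298 autosomal bins these shares were 47.6%, 48.7% and 49.6%, and for the bins of the shared regions 86.0%, 87.2% and 88.0%. The median over the bins of a library ran from 1.67 to 2.47 in NC, 2.09 to 2.92 in WG and 2.26 to 2.75 in WL, so that the groups overlapped.

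By limma, with a Benjamini-Hochberg adjusted p below 0.05 and a difference above 0.75, the index was higher in WG than in NC in 188 bins (7.68%) and lower in 10 (0.408%), beside 3.8% and 0.678% of all bins. From WG to WL, 23 bins (0.940%) were higher and 3 (0.123%) lower, beside 0.836% and 0.169%. From NC to WL, 489 bins (20.0%) were higher and 6 (0.245%) lower, beside 9.83% and 1.36%. Most of the difference from the background was shared by bins of compartment A: among bins with a mean index above 0, 7.59%, 0.943% and 18.5% were higher, and among bins of the shared regions 9.26%, 0.801% and 19.6%. The count depends on scaling: after quantile normalization of the index between libraries, 58, 10 and 183 bins were higher and 15, 5 and 29 lower, and the median difference from NC to WL fell from 0.36 to 0.05.

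The largest rise from NC to WL was in the bin of a region near LHX6 (chr1:262307201-262309200), with mean indices of 1.55 (NC), 2.87 (WG) and 4.15 (WL). Of the 10 regions with most signal, the bin at SLCO2A1 had indices from -0.35 to 1.18 in NC, 0.17 to 2.46 in WG and 1.35 to 2.5 in WL, and was called from NC to WG (0.84 ± 0.19, adjusted p = 8.66e-04) and from NC to WL (1.37 ± 0.19, adjusted p = 2.04e-05). The NC and WL libraries did not overlap there, and the index rose while SLCO2A1 expression fell. The bins at LZTS1, MAGI1, PLCB4 and TMCC3 were called from NC to WL only. Of the regions whose bin was higher from NC to WL and whose nearest gene was tested, 62 had a nearest gene called higher, 55 one called lower and 193 one not called. Where the bin was not called, these counts were 232, 182 and 782. Over all genes tested, 15.2% were called higher and 17.8% lower. Regions that share a nearest gene were each counted, and no difference between these counts was tested.

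**Figure D5:**
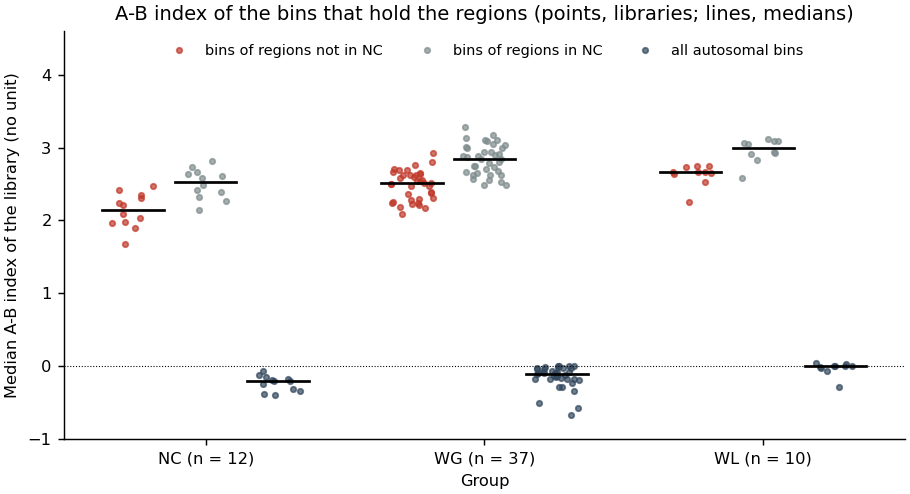
Median A-B index of each Hi-C library (vertical axis, no unit) over bins that hold MAD regions absent from NC (red), bins of regions present in NC (grey) and all autosomal bins (dark blue), in NC (n = 12), WG (n = 37) and WL (n = 10). Points are libraries and black lines are medians; the red points lie between 1.67 and 2.92, below the grey points on average and above the dark blue points near 0.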

How the data were processed

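Per the labels and the methods of the study, the authors mapped H3K27ac and input reads to Sscrofa11.1 with BWA 0.7.15, removed duplicates with SAMtools 1.3.1, called peaks with SICER and joined peaks within 12.5 kb with ROSE. Peaks had to be seen in at least 50% of the replicates of a group, which 1 library meets by itself. The deposited tables give the signal of each region over the pooled libraries of a group, for H3K27ac and input, with the peak number, rank and super-enhancer mark. Precision between libraries is therefore unknown for these tables.

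The authors estimated transcript abundance with kallisto 0.43.0. The deposited estimated counts (rounded here for the tests) and TPM of protein-coding genes were used, with 4841273 to 22797016 counts per MAD library. The deposited A-B index is a score per 20-kb bin without counts, so only the spread between libraries gives its precision. In each table of estimated counts, TPM and A-B index, 9 columns match no sample title and were not used.

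Regions were compared by overlap of at least 1 base, with starts counted from 0 in the tables and coordinates printed from 1. The nearest gene was that with the nearest start site in the RefSeq annotation of Sscrofa11.1. Of 18691 autosomal protein-coding genes, 13067 (69.9%) were matched by symbol or synonym to 1 expression identifier. Expression was tested with edgeR 4.0.16 (TMM, quasi-likelihood, 2-sided) in R 4.3.3 on 2 groups at a time, for genes that passed 0.5 TPM in 80% or more of the libraries of either group, and the A-B index with limma 3.58.1, both with Benjamini-Hochberg adjustment over all genes or bins and both tested on simulated data. The methods describe each tissue as taken from each pig, so that the MAD libraries of a group were treated as different pigs. Sequences were read with Python 3.11.15 from the reference with an index by samtools 1.23.1. Windows next to untranslated exons were passed over.

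Named genes were those nearest to the 10 regions with the most signal above input in WL or to a super-enhancer in WL, the 6 largest rises and falls among calls from NC to WL, the 4 largest in each of the other comparisons, and nearest genes in the gene lists. Of these, 1 gene and the sequence at LZTS1 are not reported here. The regions, gene lists, marker lists and this rule were chosen with earlier results of these data known. Same-numbered samples of 2 groups did not deviate together (correlations from -0.567 to 0.473 in expression and from -0.503 to 0.563 in the index), so the numbers were not taken to pair them. Alternatives were DESeq2 1.42.0, no filter on low values, the replicate number as a block, the share of TPM on protein-coding genes as a covariate, leaving libraries out, other ways to assign genes, stricter rules for the regions, and quantile normalization of the index. The fits without NC replicate 1, without the 4 lymphocyte-rich libraries, and without the block on the samples of the block fit were added after seeing the data.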

Additional observations from a re-analysis of the deposited data

Results flagged for a closer look

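Of the 53 groups of 10 WL libraries tested, 7 had a highest library that stood far from the others. For independent groups chance gives about 1 in 20. These groups share libraries and are not independent, so that 7 cannot be read as an excess over chance. GYS2 had 17.1 TPM in WL replicate 2, with the next library at 7.51. MTUS2 had 3.34 TPM and PEBP4 8.84 TPM in WL replicate 3, with the next at 1.52 and 4.24. CD79B had 179.9 TPM in WL replicate 6, with the next at 94.4. MYLK had 390.4 TPM in WL replicate 2, with the next at 139. ALPL had 2.21 TPM and PCK1 194.0 TPM in WL replicate 4, with the next at 1.26 and 80.7.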

How the results depend on the processing

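The number of regions was 3004 with an overlap of at least 50%, 1505 with no NC region within the distance over which peaks were joined, 255 absent also from the NC tables of the other tissues, and 102 at 2 times input or more. Pooled H3K27ac tables allowed no library to be left out.

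With DESeq2 the calls of nearest genes were 76 higher and 56 lower from NC to WG, 130 and 125 from WG to WL, and 223 and 200 from NC to WL. Of 1955 tested genes with a start site within 50 kb of a region, 114 (5.83%) were higher and 55 (2.81%) lower from NC to WG. These stood beside 5.38% and 5.29% of all genes. From NC to WL, 384 of 2002 (19.2%) were higher and 258 (12.9%) lower, beside 15.2% and 17.8%. Among tested genes with a RefSeq position the shares were 5.75% and 4.16%, and 15.9% and 14.8%. Without a filter on low values, 113 nearest genes were lower from NC to WG. With the share of TPM on protein-coding genes as a covariate, 63 nearest genes (5.18%) were higher and 60 (4.93%) lower from WG to WL. These stood beside 3.25% and 4.81% of all genes. Without libraries under 90% of that share, 6 and 1 were left from WG to WL and 52 and 28 from NC to WL. The settings added after seeing the data gave 45 and 44 from WG to WL and 139 higher from NC to WL without the 4 lymphocyte-rich libraries, and 33 lower from NC to WG without NC replicate 1. Each was run on fewer libraries, and the cause of the lower counts was not tested. The shares over all genes without these libraries are given above.

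With the replicate block, which fits only samples that share a number, 1 nearest gene was higher and 0 lower from NC to WG by edgeR, with 80 and 42 at an unadjusted p below 0.05. The same samples without the block gave 11 and 3. Of the 18 named genes called from NC to WG, LEP kept its call with the block. In the A-B index the block left 0 bins higher and 0 lower from WG to WL by limma, with 205 and 116 at an unadjusted p below 0.05. The numbers share no pairing that the check could find.

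Quantile normalization of the index left 58 bins higher from NC to WG, 10 higher and 5 lower from WG to WL, and 183 higher and 29 lower from NC to WL, with median differences of 0.0403 from NC to WG and 0.0526 from NC to WL. Among named genes called on all libraries, the sign turned without libraries under 90% for CD79B (-1.28), DAPL1 (-0.39), ASB2 (-0.063) and CCL17 (-0.88) from WG to WL, none of them called there.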
